A study of Homo sapiens and Mus musculus with 20 samples.

Results

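The 10 genes described here encode tubulin isotypes, namely 3 alpha-tubulins (TUBA1A, TUBA1B and TUBA1C), 6 beta-tubulins (TUBB, TUBB2A, TUBB2B, TUBB3, TUBB4B and TUBB6) and gamma-tubulin 1 (TUBG1). They were chosen by gene symbol, with earlier results of these data known. The choice was from 17554 genes listed in at least 1 of 3 RNA sequencing experiments on IMR90 cells. IMR90 is an established human lung fibroblast line that stops dividing after enough passages and is used as a model of senescence. All 10 symbols were listed in the A485 and MS-275 experiments, and 9 were listed in the pyruvate experiment, where TUBB had no entry. The study asked how enzymes and metabolites that set histone lactylation affect senescence. Each experiment compared 2 treated libraries with 2 control libraries of wild-type cells, so 12 libraries in 6 groups entered this report. A485, an inhibitor of the acetyltransferase p300, was compared with the untreated group Control2. MS-275, which blocks class I histone deacetylases, was compared with the untreated group Control3, and pyruvate, which the study gave to senescent cells, with the untreated group Control6. The labels give no dose, treatment time or passage, and do not say whether replicates came from separate cultures, so p-values measure the spread between libraries, which may be technical.

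Microtubules are hollow polymers of alpha-beta tubulin dimers, nucleated at centrosomes from ring complexes that contain gamma-tubulin. They carry vesicles and organelles in resting fibroblasts and are rebuilt into the spindle when cells divide. The isotypes are made from separate genes and differ mostly in their acidic C-terminal tails, which reach out from the lattice and are read by motors and modifying enzymes. Cells also sense free tubulin dimers: when there are too many, the factor TTC5 binds the opening residues of nascent alpha- and beta-tubulin on the ribosome and the mRNA is degraded.

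The opening codons are shown because this control of mRNA level reads the residues they encode. The sequences are from the coding exons of the MANE Select transcripts on hg38 (GENCODE version 44), spliced, 5′ to 3′ in the sense of the gene, beginning at the start codon, with the opening 12 bases in capitals. TUBA1A, TUBA1B and TUBA1C had the same 30 bases, so only TUBA1B is given for the alpha members (start codon at position 49131300 of chromosome 12, minus strand).
TUBA1B: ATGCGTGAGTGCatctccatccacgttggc
TUBB2A: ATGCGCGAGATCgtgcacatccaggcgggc
TUBB4B: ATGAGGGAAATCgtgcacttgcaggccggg
TUBG1: ATGCCGAGGGAAatcatcaccctacagttg
The capitals were identical in the 3 alpha genes. TUBB and TUBB4B shared 1 opening of 12 bases, and TUBB3 and TUBB6 shared another. TUBB2A differed from TUBB2B by C6T, counted from 1 at the start codon, with the base of TUBB2A written before the position. In all beta members the opening 12 bases encode the same residues. TUBG1, which is not part of the dimer, opened with another order of codons.

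The end of the coding sequence encodes the C-terminal tail, where isotypes are told apart. These are the last 75 coding bases before the stop codon of 3 beta members, from the same transcripts, shown because the near copies TUBB2A and TUBB2B can be set beside TUBB4B.
TUBB2A: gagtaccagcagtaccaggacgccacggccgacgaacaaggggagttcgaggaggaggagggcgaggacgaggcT
TUBB2B: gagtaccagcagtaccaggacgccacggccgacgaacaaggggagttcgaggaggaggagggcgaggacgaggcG
TUBB4B: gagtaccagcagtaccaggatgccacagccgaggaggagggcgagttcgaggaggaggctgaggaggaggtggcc
The last 75 coding bases of TUBB2A and TUBB2B differed at 1 base, the capital letter at the end (T75G, counted from the start of the 75 bases). Both gct and gcg encode alanine, so the encoded tails of these genes were the same. TUBA1A and TUBA1B, not printed here, differed at 0 of their last 75 coding bases. In the last 25 codons the number of gaa or gag codons, which encode glutamate, was 10 in TUBB, 11 in TUBB4B, 9 in TUBB2A, TUBB2B and TUBB3, 7 in TUBB6, and 2 in TUBG1.

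Such likeness limits how well short reads tell the genes apart. Over the whole coding sequence TUBB2A and TUBB2B were 98.1% identical, TUBA1B and TUBA1C 97.3%, TUBA1A and TUBA1B 97.2% and TUBA1A and TUBA1C 96.3%, whereas TUBB4B and TUBB6 were 83.4% identical. Stretches of 150 bases taken every 10 bases along each MANE transcript were placed on hg38. Of these, 51.7% of the TUBB2A stretches and 42.7% of the TUBB2B stretches had an equally good second place on the main chromosomes. The figure was 21.6% for TUBA1B, 11.1% for TUBA1A, 10.1% for TUBA1C, 10.3% for TUBG1, 5.06% for TUBB, 3.21% for TUBB3 and 0% for TUBB4B and TUBB6. The handling of reads with several placements is not given in the sources used here, so the split between TUBB2A and TUBB2B, and among the alpha genes, is uncertain, and the levels of TUBB4B and TUBB6 rest on sequence of their own.

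The alpha genes lie together on chromosome 12, TUBA1B at chr12:49127782-49131397 and TUBA1A at chr12:49184686-49189080 on the minus strand, and TUBA1C at chr12:49188736-49274600 on the plus strand. The annotated ends of TUBA1A and TUBA1C overlap on opposite strands, and the strand setting of the counting is not given in the sources used here. TUBB2A (chr6:3153497-3157544) and TUBB2B (chr6:3223324-3231730) are neighbours on the minus strand of chromosome 6. TUBB is also on chromosome 6, at chr6:30717435-30725538, inside the major histocompatibility region. The others are TUBB3 (chr16:89921392-89938761), TUBB4B (chr9:137241287-137243707), TUBB6 (chr18:12307669-12344320) and TUBG1 (chr17:42609641-42615238), all on the plus strand.

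Levels are given as normalized values, that is, reads per gene divided by a size factor for the library, and levels of different genes are compared only per kb of union exon length. In every group TUBA1A, the alpha isotype best known from developing neurons, had the highest level per kb, with group means from 5611 (A485) to 18482 (Control6). TUBB4B, a widely expressed beta isotype also used in cilia, came next and TUBB6, a beta isotype of non-neural tissue, after it, with control means of 6525 to 7916 and 4532 to 6291 per kb. This order of TUBB4B and TUBB6 depends on the length used, since with the MANE length TUBB6 held the larger mean share of the beta members in every group, 46.5% against 41.8% in Control3 and 48.2% against 37.7% in Control6, and under MS-275 their libraries overlapped per kb of union exon length. TUBA1A and TUBB4B did not separate in Control2, where their libraries overlapped (8806 and 14121 against 9680 and 5815 per kb), and they did separate in the other 5 groups. TUBA1B and TUBA1C, the alpha isotypes of most dividing cells, had control means between 2308 and 3630 per kb, and TUBB2A, a beta isotype rich in brain but present in fibroblasts, between 1061 and 1943. In Control2 the libraries of TUBA1B and TUBA1C overlapped, as they did under MS-275. The low end held TUBG1 (304 to 428 per kb in controls), TUBB2B (145 to 210) and TUBB3, the neuronal beta isotype (7.76 to 11.7). TUBB3 had the longest union of exons (7421 bases, against 1706 in its MANE transcript), which lowers its value per kb.

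**Figure D1:**
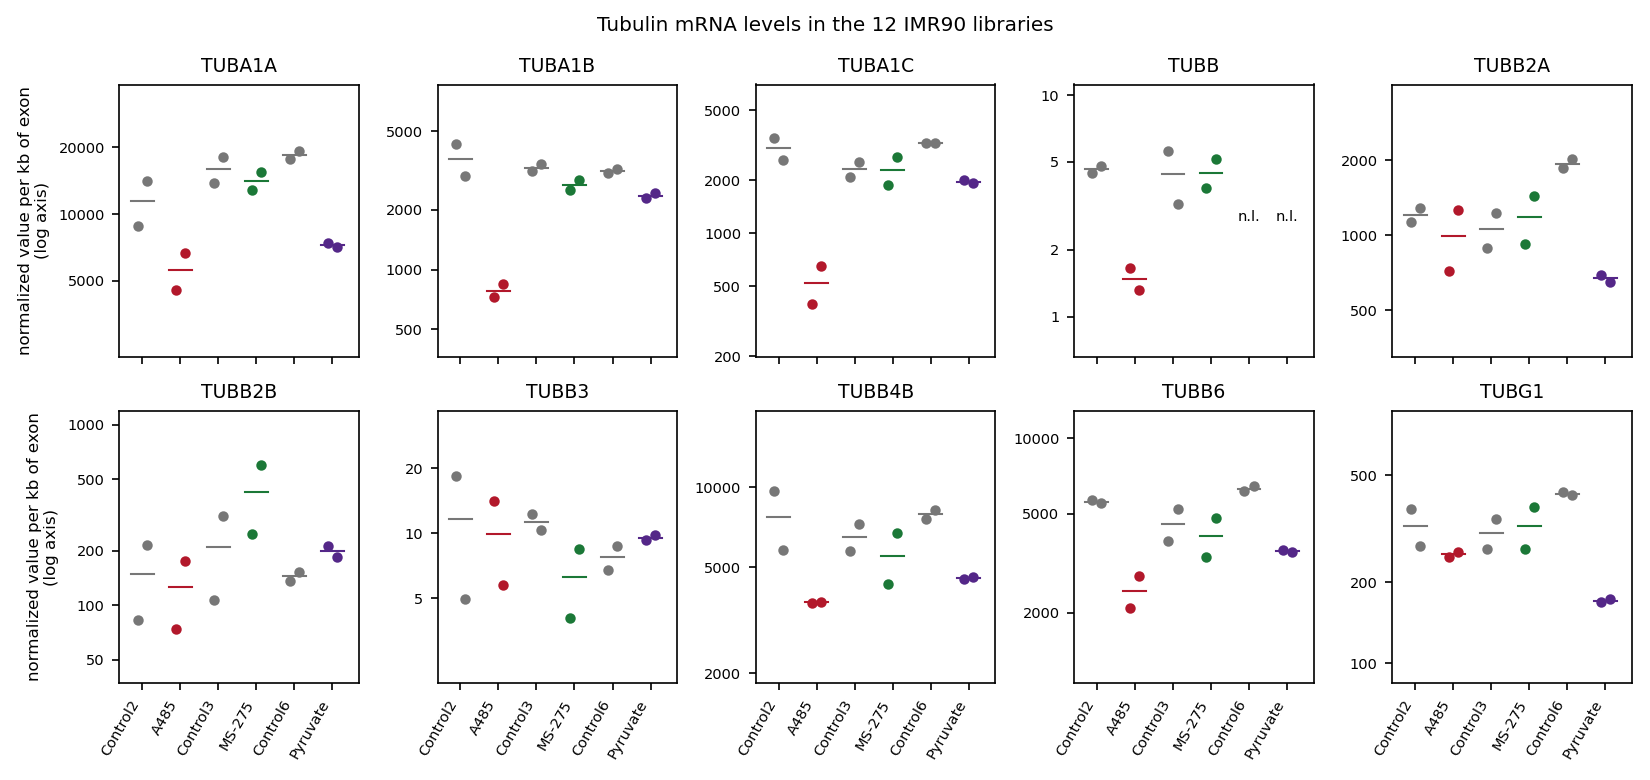
Normalized value per kb of union exon length (y axis, logarithmic, with a range of its own in each panel) of the 10 tubulin genes in 6 groups; points are libraries, short lines are means of 2 libraries, controls are grey and "n.l." means not listed. TUBA1B and TUBA1C are lowest in the A485 libraries, at 726 to 842 and 396 to 653 per kb, TUBA1A is at 7135 to 7390 under pyruvate, and TUBB is at 5.60 or below wherever it is listed.

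TUBB, which encodes the beta-tubulin found in nearly all cell types, was almost without reads. Its normalized values were 18.2 and 19.6 in Control2, 6.74 and 5.34 with A485, 22.8 and 13.1 in Control3, and 15.5 and 20.9 with MS-275. TUBB4B lay between 7487 and 19719 in the same 8 libraries. All 237 stretches of 150 bases from TUBB (100%) were placed equally well on an alternate sequence of the same region in hg38, which was so for 0% of the stretches of each other member. Of the 19 other protein-coding genes within 250 kb of TUBB, 4 were listed in the A485 experiment, with values from 1.78 to 143, whereas 65.1% of all annotated protein-coding genes were listed there. The list of the pyruvate experiment held 2 of these 19 neighbours, against 54.0% of all protein-coding genes. Whether the index used for alignment held these alternate sequences is not given in the sources used here, and its part in the level of TUBB was not tested. Shares of the beta members below hold TUBB only as far as it was counted.

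The deposited libraries held 24179065 to 46971227 reads in listed genes, and the alpha and beta members together took 0.120% to 0.503% of them. Within 5 of the 6 groups replicates differed by far more than counting error (a chi-square statistic per gene of 13.8 to 456), and in the pyruvate group by 4.54 per gene, so all were kept as separate libraries. The fibroblast marker COL1A1 was between 123075 and 655334 in every library. S100A4, of the same marker list, read 113 and 142 with A485, where EPCAM read 208 and 177. CD14 (leukocytes), EPCAM and CLDN7 (epithelium), and VWF and KDR (endothelium), where listed, did not exceed 208. The neuronal RNAs SNAP25 and SYP reached 783 and 1054 with MS-275. INA, of the same neuron list, read 1130 and 463 in Control2, 716 and 301 in Control3, and 1199 and 421 with MS-275.

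Upon treatment with A485, the mRNAs of TUBA1B, TUBA1C and TUBB6 fell. A gene was called when its adjusted p in limma was under 0.05 and its log2 fold change exceeded 1 in size, and 3 of 10 members were called lower and 0 higher, beside 7.06% of the 16084 genes tested called lower and 3.31% called higher. Over all genes 532 were called higher and 1135 lower, which became 1669 higher and 915 lower with libraries scaled to equal totals and 751 higher and 1011 lower with quantile normalization. The median log2 fold change was -1.02 over the 10 members and 0.01 over all genes tested, and all 10 values were below 0, of which those of TUBB2A, TUBB2B, TUBB3 and TUBG1 were above 0 when libraries were scaled to equal totals. That scaling moved the median of all genes to 0.40 with A485, -0.15 with MS-275 and 0.30 with pyruvate. Since the libraries are bulk, fewer cells of a kind and less RNA per cell cannot be told apart.

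TUBA1B went from 15347 and 10602 in Control2 to 2593 and 3010 with A485. Both treated libraries lay far below both controls, and the treated mean was 21.6% of the control mean. The log2 fold change was -2.19 (SE 0.23, adjusted p = 0.00461, limma). For TUBA1C the control values were 15567 and 11639 and the treated values 1765 and 2907, again without overlap. This was the largest decrease of a member, at -2.57 (SE 0.28, adjusted p = 0.00558, limma), and left 17.2% of the control mean. TUBB6 had the closest controls, 22263 and 21668, and read 8237 and 11089 with A485, a log2 fold change of -1.20 (SE 0.20, adjusted p = 0.0194, limma). Scaled to equal totals it was -0.81 and no longer past the fold limit. With quantile normalization it was -0.75 and passed neither limit (adjusted p = 0.0560, limma).

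TUBA1A and TUBB4B lay just past the fold limit without passing the adjusted p. TUBA1A read 33666 and 53985 in Control2 and 17379 and 25523 with A485, so that the groups did not overlap, but its controls differed by more than the treated libraries did (log2 fold change -1.02, SE 0.31, adjusted p = 0.0862, limma). TUBB4B read 19719 and 11844 in the controls and 7487 and 7586 when treated, with a 95% interval of the log2 fold change from -1.67 to -0.37. For TUBB the log2 fold change was -1.50 with an interval from -3.10 to 0.09, on normalized values of 19.6 or less.

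The remaining members overlapped or lay close. TUBB2A was at 3292 and 3728 in the controls and at 2098 and 3682 with A485, and TUBB2B at 346 and 896 against 308 and 736. Both overlapped between groups, and for TUBB2B the replicates of each group were farther apart than the group means. TUBB3 went from 137 and 36.7 to 105 and 42.8. TUBG1, the nucleating isotype, was at 1614 and 1182 against 1075 and 1118, and its interval ran from -0.87 to 0.20. In 7 of 10 members both treated libraries lay below both controls, and in 0 members above both, beside 30.7% and 30.4% of all genes tested.

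The A485 calls rested on few libraries. Without A485 replicate 1, 0 members were called and 229 genes in all, and without A485 replicate 2, 1 member (TUBA1C) and 301 genes, compared with 1667 genes over all libraries. TUBB6 was not called without any of the 4 libraries (adjusted p = 0.0678 and 0.0578 without Control2 replicates 1 and 2, 0.144 and 0.0725 without A485 replicates 1 and 2, limma). The 3 members called without Control2 replicate 2 were TUBA1B, TUBA1C and TUBB4B. Without A485 replicates 1 and 2 in turn, the log2 fold change was -2.08 and -2.30 for TUBA1B, -2.21 and -2.93 for TUBA1C and -0.99 and -1.41 for TUBB6, the first of which is inside the fold limit.

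**Figure D2:**
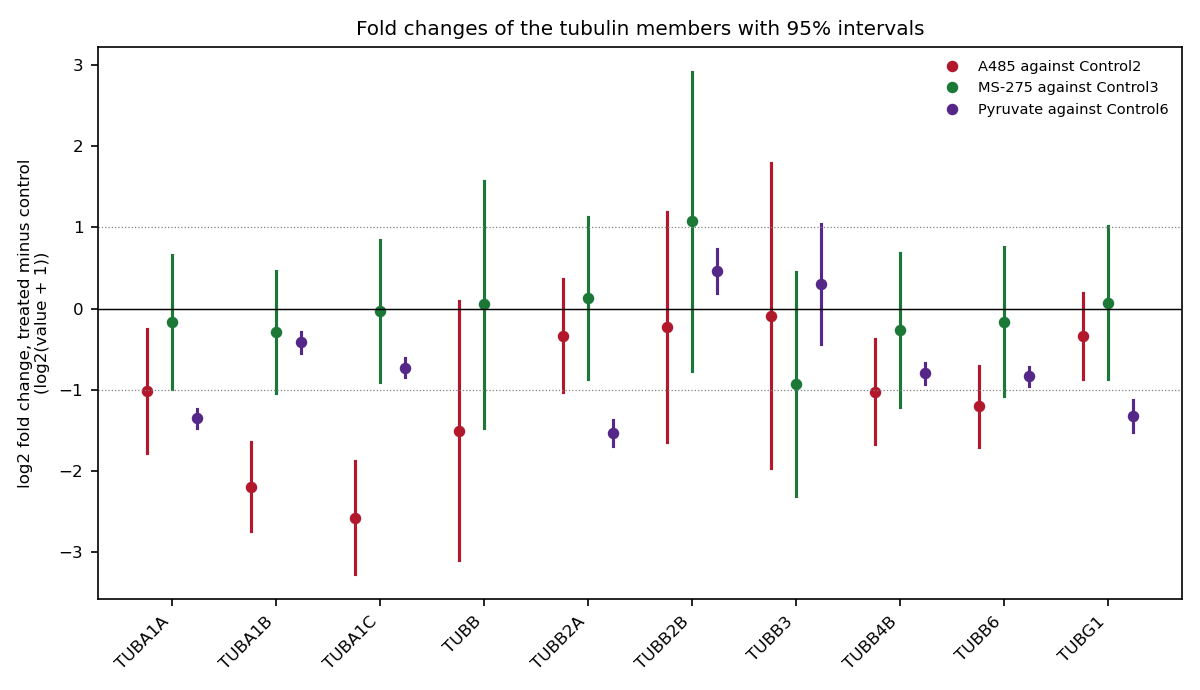
Log2 fold change of each tubulin gene on the log2(value + 1) scale (y axis), treated minus control, with 95% intervals from limma (n = 2 against 2 libraries), dotted lines at the fold limit of 1 in either direction. With A485 the intervals of TUBA1B and TUBA1C lie wholly below -1, those of MS-275 all include 0, and those of pyruvate are the narrowest, with 3 genes beyond -1.

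With MS-275 and no replicate block, no member was called. The test called 0 of 15883 genes, while 10.9% had an unadjusted p under 0.05, so the calls say little here and the values are given. Count tests were not run for this experiment. TUBA1A read 52867 and 69100 in Control3 and 48922 and 59300 with MS-275. TUBB6 read 15266 and 20451 against 13212 and 18958, and TUBB4B 11763 and 14820 against 8809 and 13700. These overlapped, and the differences within replicate number were -0.11 and -0.22 (log2) for TUBA1A, -0.21 and -0.11 for TUBB6 and -0.42 and -0.11 for TUBB4B. The interval of the TUBA1A fold change, -0.99 to 0.66, leaves room for a change in either direction.

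TUBA1B, at 11212 and 12125 in Control3 and 9033 and 10152 with MS-275, was 1 of 2 members whose groups did not overlap, both lower, beside 19.3% of all genes lower and 19.5% higher. The other was TUBB3, at 91.1 and 76.8 against 30.02 and 62.8, with a log2 fold change of -0.93 (SE 0.53, adjusted p = 0.650, limma). Within replicate number the log2 differences were -0.31 and -0.26 for TUBA1B and -1.57 and -0.29 for TUBB3. TUBB2B, the isotype nearly identical to TUBB2A, had the largest positive value, 1.07 (SE 0.71, adjusted p = 0.705, limma). It read 447 and 1297 in Control3 and 1035 and 2485 with MS-275, which overlap as groups, and within replicate number the log2 differences were 1.21 and 0.94. TUBB2A lay at 2599 and 3570 against 2686 and 4176, and TUBA1C at 9324 and 11232 against 8397 and 11989. TUBG1 was at 1146 and 1481 against 1145 and 1642.

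Upon pyruvate treatment most tubulin mRNAs were lower, TUBB2A, TUBA1A and TUBG1 most of all. Of 9 listed members 3 were called lower and 0 higher, beside 23.1% of 12013 genes called lower and 31.0% called higher. Over all genes 3726 were called higher and 2777 lower, and 4402 and 1741 with equal totals. Counting adjusted p under 0.05 alone, 7 members were lower and 1 higher, beside 40.2% and 40.6% of all genes. The median log2 fold change was -0.80 over the members and -0.01 over all genes tested. Replicates in this experiment were close, and in all 9 members the groups did not overlap (7 lower, 2 higher), beside 45.3% of all genes lower and 45.2% higher.

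TUBA1A read 67996 and 73318 in Control6 and 28251 and 27278 with pyruvate, which is 39.3% of the control mean (log2 fold change -1.35, SE 0.05, adjusted p = 1.55e-09, limma), and -0.81, within the fold limit, after quantile normalization. TUBB2A went from 5435 and 5865 to 2025 and 1890 (-1.53, SE 0.07, adjusted p = 5.63e-09, limma). TUBG1 went from 1877 and 1817 to 727 and 749, and its log2 fold change was -1.32 (SE 0.09, adjusted p = 9.06e-08, limma). These 3 genes encode an alpha, a beta and the gamma isotype.

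Below the fold limit, TUBB6 was at 24170 and 25418 against 14015 and 13872 (log2 fold change -0.83), TUBB4B at 15486 and 16765 against 9205 and 9353 (-0.80), TUBA1C at 14393 and 14518 against 8955 and 8552 (-0.72), and TUBA1B at 10952 and 11494 against 8171 and 8674 (-0.41). All 4 had adjusted p of 4.82e-05 or less in limma. For TUBA1B the limma fold change was -0.10 with equal totals (adjusted p = 0.131) and -0.09 with quantile normalization (adjusted p = 0.186). In 1 limma fit over the 12 libraries the adjusted p of TUBA1B was 0.102. TUBB2B was higher where its near copy TUBB2A was lower, at 567 and 637 in Control6 and 891 and 768 with pyruvate (0.46, SE 0.12, adjusted p = 0.00437, limma). The adjusted p of TUBB2B was 0.0595 with quantile normalization, 0.0627 without Pyruvate replicate 1 and 0.554 in 1 limma fit over the 12 libraries. TUBB3 read 50.1 and 65.1 against 68.8 and 73.0, with an interval from -0.44 to 1.05.

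Fold changes in the pyruvate experiment followed the GC content of the transcript across all genes. With genes split by GC content into 5 equal groups, the median log2 fold change was 1.74 in the group with the lowest GC (up to 40.9%), 1.24 in the next (up to 45.5%), -0.12 in the middle group, -0.74 up to 57.5% and -1.12 above. Across 11888 genes Pearson's r between GC content and log2 fold change was -0.67, given as a description since all genes share the 4 libraries, whereas it was -0.06 with A485 and 0.01 with MS-275. TUBB6 (GC content 61.2%) and TUBB4B (59.5%), at -0.83 and -0.80, lay above the median of their GC group. TUBA1A (45.2%) lay far below its own, in the second group.

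When a trend on exon length and GC content was removed from each library, TUBA1A remained called lower (-1.65, adjusted p = 1.42e-07, limma), TUBB2A went to -0.56 and TUBG1 to -0.55. TUBA1B, TUBB4B and TUBB6 changed sign, to 0.55, 0.44 and 0.43, and TUBB2B and TUBB3 were called higher, both at 1.22 (adjusted p = 0.000101 and 0.0289, limma). The same removal shifted the median of all genes from -0.01 to 0.18. Under A485 the calls of TUBA1B, TUBA1C and TUBB6 were the same with this trend removed. Whether library preparation or the cells set the trend was not tested. The part of the trend in the pyruvate fold changes of the other gene lists below was not tested either.

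**Figure D3:**
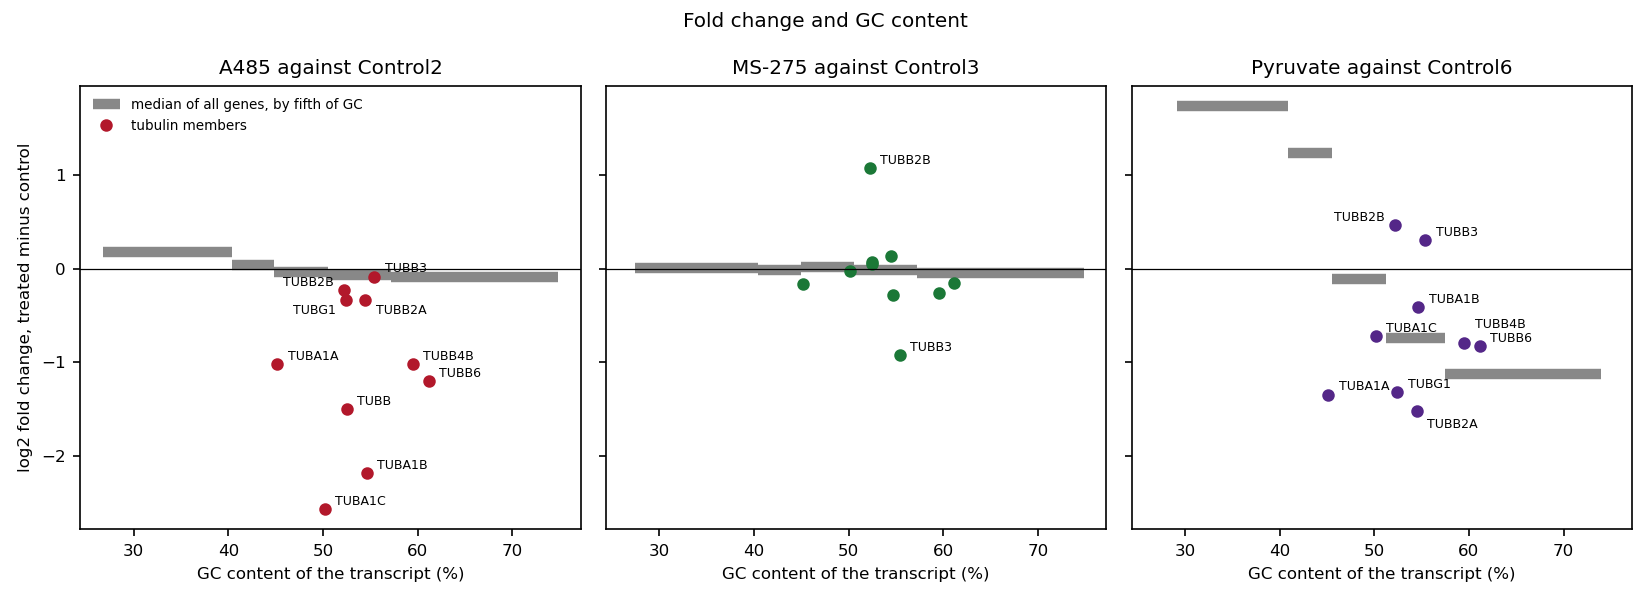
Log2 fold change (y axis) against GC content of the longest transcript (x axis, percent) in the 3 comparisons; grey bars are medians of all genes in 5 equal groups by GC content, and points are tubulin genes, labelled except where close to 0 under MS-275. The grey bars fall from 1.74 to -1.12 with pyruvate and stay between 0.18 and -0.10 with A485, where TUBA1B and TUBA1C lie far below them.

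Isotype shares do not depend on the size factor, since each is a percent of the summed value per kb of the alpha or the beta members of the same library. TUBA1A held 53.1% and 71.7% of the alpha members in Control2 and 80.2% and 81.7% with A485, a mean difference of 18.6 percentage points. That difference was 9.28 points without Control2 replicate 1 and 27.9 points without Control2 replicate 2. TUBA1B went from 25.9% and 15.1% to 12.8% and 10.3%, and TUBA1C from 21.1% and 13.3% to 6.99% and 7.99%. None of the 3 overlapped between groups. With 2 libraries against 2, an exact permutation test cannot give a two-sided p below 0.333, which is what each of these changes gave, and no other test was run on the shares.

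With pyruvate the alpha shares moved the other way. TUBA1A held 73.9% and 74.8% in Control6 and 63.2% and 62.1% with pyruvate, a mean difference of -11.6 percentage points, while TUBA1B went from 12.7% and 12.5% to 19.6% and 21.1% and TUBA1C from 13.4% and 12.7% to 17.2% and 16.7%. Under MS-275 the means for TUBA1A were 74.0% and 74.0%.

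Among the beta members TUBB4B and TUBB6 together held most of the value in every library. TUBB4B had 58.4% and 45.4% in Control2 and 55.9% and 46.6% with A485, and TUBB6 34.1% and 42.9% against 31.8% and 35.2%, so both overlapped. TUBB2A had 6.83% and 10.004% in Control2 and 10.97% and 15.9% with A485, without overlap. With MS-275 the share of TUBB2A was 10.4% and 10.6%, above 8.38% and 8.76% in Control3, and that of TUBB2B was 2.81% and 4.40%, above 1.01% and 2.22%, while TUBB4B was lower (48.8% and 49.5% against 54.1% and 51.9%). With pyruvate TUBB2A went from 11.87% and 11.97% to 7.74% and 7.26%, and TUBB2B from 0.865% and 0.908% to 2.38% and 2.06%. TUBB3 held 0.214% or less throughout. Exact permutation p was 0.333, the smallest possible, for each of these beta shares that did not overlap.

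**Figure D4:**
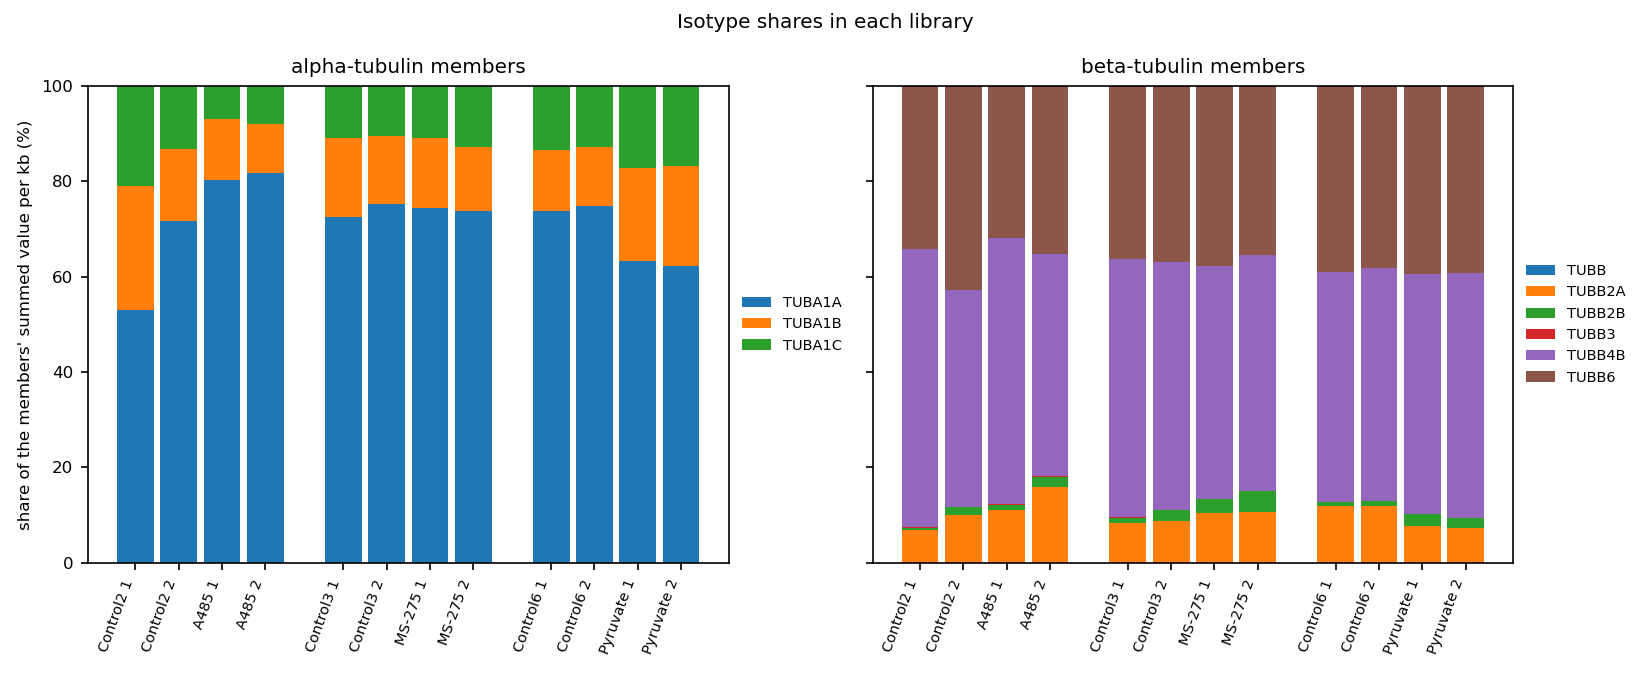
Share of each isotype in the summed value per kb (y axis, percent) of the 3 alpha members (left) and the listed beta members (right) in each of the 12 libraries, numbered by replicate. The TUBA1A share is 80.2% and 81.7% with A485 and 63.2% and 62.1% with pyruvate, and Control2 replicate 1, at 53.1%, is the lowest of all.

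Summed per kb, the alpha members were at 16595 and 19701 in Control2 and 5668 and 8171 with A485, a ratio of 0.381 between the group means, and the beta members at 16568 and 12820 against 6577 and 7989, a ratio of 0.496. Neither sum overlapped between groups (exact permutation p = 0.333 each, two-sided, the smallest possible). The alpha to beta ratio was 1.002 and 1.54 in Control2 and 0.862 and 1.02 with A485, which overlap. With pyruvate the alpha sum went from 24082 and 25654 to 11687 and 11482 and the beta sum from 15748 and 16859 to 8995 and 8956, and their ratio from 1.53 and 1.52 to 1.30 and 1.28. Under MS-275 the ratio was 1.79 and 1.71 in Control3 and 1.94 and 1.55 in the treated libraries.

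The treatments were set against each other by testing the difference of their fold changes over the 8 libraries of both experiments. TUBA1B and TUBA1C were lower with A485 than with MS-275, by -1.91 (SE 0.37, adjusted p = 0.0373, limma) and -2.54 (SE 0.48, adjusted p = 0.0328, limma), 2 of 10 members beside 3.20% of all genes lower and 0.608% higher, where no member was. The count was 0 with equal totals or without the eBayes trend and 1 with quantile normalization. Leaving out any single library took it to 0, except MS-275 replicate 1, which left 1. The difference for TUBB6 was -1.04 (SE 0.42, adjusted p = 0.258, limma).

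Between A485 and pyruvate some members were lower and some higher, at no more than the shares over all genes. TUBA1B and TUBA1C were lower with A485 than with pyruvate, by -1.78 (SE 0.25, adjusted p = 0.000356, limma) and -1.85 (SE 0.32), while TUBB2A and TUBG1 were higher, by 1.19 (SE 0.33, adjusted p = 0.0116, limma) and 0.99 (SE 0.23). These were 2 members lower and 2 higher of 9, beside 38.1% and 27.2% of all genes, and with length and GC trends removed 4 were lower and 0 higher. Compared with pyruvate, MS-275 was lower for 0 of 9 members, beside 23.9% of all genes. Members higher were TUBA1A (1.18, SE 0.29, adjusted p = 0.0196, limma), TUBB2A (1.67, SE 0.37) and TUBG1 (1.40, SE 0.33). The members higher were thus 3 of 9, beside 17.2% of all genes. This last count fell to 1 without Control6 replicate 1 and to 0 without Control6 replicate 2 or either pyruvate library, and rose to 6 without MS-275 replicate 1.

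Of the 12 other tubulin genes, 4 were tested with A485, 6 with MS-275 and 4 with pyruvate. TUBA4A, an alpha isotype of muscle, platelets and brain, had the widest range. It fell with A485, from 461 and 514 to 108 and 94.4 (log2 fold change -2.26, SE 0.29, adjusted p = 0.00884, limma), and with pyruvate, from 806 and 776 to 125 and 141 (-2.56, SE 0.15, adjusted p = 3.35e-08, limma). With MS-275 its libraries read 382 and 542 in Control3 and 2212 and 3197 when treated, 2.54 on the log2 scale (SE 0.38, adjusted p = 0.174, limma), which did not pass; it is named there after its values were seen. TUBB4A, the beta isotype of myelinating cells, was at 0 and 1.01 in Control3 and at 162 and 55.8 with MS-275. With pyruvate TUBG2, another gamma-tubulin gene, fell by 1.98 and TUBE1, which encodes the centriolar epsilon-tubulin, rose by 2.55 on the log2 scale. Their GC content was 58.8% and 34.2%, and the part of the GC trend in these changes was not tested.

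The gamma-tubulin ring genes had 0 of 10 called with A485, where MZT2B had the smallest p (log2 fold change -0.40), and 0 of 10 with MS-275, where it was TUBGCP3 (-0.59). With pyruvate 4 were called higher and 4 lower of 9 tested, beside 31.0% and 23.1% of all genes, among them the scaffold gene CDK5RAP2 (1.90), TUBGCP2 (-1.20) and MZT2A (-1.35). The GC content of the 4 lower genes was 54.9% to 67.0% and that of the 4 higher genes 31.0% to 50.5%, and the part of the GC trend in these calls was not tested.

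The folding genes, for the chaperonin CCT that folds tubulin, prefoldin and the tubulin cofactors, had 0 of 19 called with A485 and 0 of 19 with MS-275, with CCT4 (-0.67) and VBP1 (-0.40) nearest to passing. With pyruvate 8 of 19 were called higher and 3 lower, beside 31.0% and 23.1% of all genes. CCT6A read 566 and 510 in Control6 and 5016 and 5200 with pyruvate (log2 fold change 3.25), CCT2 gave 2.29 and CCT8 3.52. Other subunits of the chaperonin were lower, CCT3 at -0.74 and CCT7 at -0.76, with adjusted p of 5.21e-07 and 1.33e-07 in limma but inside the fold limit. Both are named after their values were seen. GC content was 42.5% in CCT6A, 45.9% in CCT2 and 43.4% in CCT8, and 51.3% in CCT3 and CCT7. The part of the GC trend in these fold changes was not tested. The median of the folding genes, 0.25, stood beside -0.01 for all genes tested and -0.80 for the tubulin members.

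TTC5, the sensor of nascent tubulin, was not called in any comparison. It read 1375 and 1224 against 1481 and 1521 with A485, 1117 and 1462 against 1490 and 2109 with MS-275, and 913 and 776 against 787 and 817 with pyruvate. Its log2 fold changes were 0.21, 0.47 and -0.07. SCAPER, which hands the mRNA on for degradation, had the smallest p of its list with A485 (0.81, adjusted p = 0.128, limma), and CNOT11 of the deadenylase complex with pyruvate (0.21, adjusted p = 0.0560, limma).

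Of the tubulin-modifying enzymes, 1 of 17 was called with A485, beside 10.4% of all genes. It was AGTPBP1, a deglutamylase that trims the tails, higher at 1.15 (adjusted p = 0.0236, limma). With MS-275 0 of 17 were called, and TTLL6 was nearest (1.95). With pyruvate 4 were called higher and 3 lower of 13, beside 31.0% and 23.1% of all genes. Among them were the deacetylase gene SIRT2 (-1.44), the tyrosine ligase gene TTL (1.02) and the deglutamylase gene AGBL5 (-1.31).

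Microtubule-associated genes had 1 of 22 called higher and 2 lower with A485, beside 3.31% and 7.06% of all genes. MAP7, which binds along microtubules and recruits kinesin-1, went from 43.9 and 58.7 to 265 and 430 (log2 fold change 2.71, adjusted p = 0.0136, limma). STMN3, a stathmin that sequesters dimers, and MAP1A, a structural microtubule-associated protein, were called lower, at -1.80 and -1.44. With MS-275 0 of 22 were called, and KIF2C, a mitotic depolymerase, was nearest, at 866 and 880 against 59.1 and 70.8. With pyruvate 10 were called higher and 6 lower of 21, beside 31.0% and 23.1% of all genes. Among them were the polymerase gene CKAP5 (3.08), the dynactin gene DCTN1 (-1.73) and MAPRE3 (-2.87), which marks growing ends.

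With pyruvate all 10 mitotic markers were called higher, beside 31.0% of all genes, with a median of 2.08. Of the tubulin members, 7 were lower at adjusted p under 0.05 (limma), beside 40.2% of all genes. The GC content of the markers ran from 37.0% (CDK1) to 57.1% (PLK1), and the part of the GC trend in their calls was not tested. MKI67, the proliferation marker, read 161 and 71.6 in Control6 and 2995 and 2999 with pyruvate, and CCNB1, TOP2A and BUB1 gave 2.11, 5.35 and 4.99 on the log2 scale. With A485 0 of 10 mitotic markers were called, and all 10 log2 fold changes were below 0, as were those of the 10 tubulin members, with a median of -1.25, PLK1 nearest (-1.94, adjusted p = 0.0869, limma). MKI67 was at 8396 and 2553 in Control2, so the Control2 libraries differed, and at 1639 and 1919 with A485. With MS-275 the median was -3.31 with 0 of 10 called, BIRC5 nearest, and MKI67 read 4235 and 380 against 256 and 34.9. The part of the number of dividing cells in the tubulin levels was not tested.

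Of 10 fibroblast markers, 8 were called lower with A485, beside 7.06% of all genes, with a median of -1.96; DCN went from 74843 and 102927 to 3906 and 3867, PDGFRB from 14289 and 17152 to 1756 and 1980, and LUM from 9383 and 10481 to 1154 and 1767. Their part in the tubulin results was not tested. None of 10 was called with MS-275, where LUM was nearest (2.18). With pyruvate 3 were called higher and 1 lower, beside 31.0% and 23.1% of all genes. These were THY1 at -1.82, DCN at 1.33, PDGFRA at 1.58 and LUM at 2.07. Markers of other cells were few. With A485 EPCAM went from 64.2 and 47.7 to 208 and 177 and VWF from 34.2 and 102 to 0 and 0, while CDH1, PECAM1, CDH5 and PTPRC had no entry in any of the 3 lists.

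TUBB6 and TUBB3 were also set against all other genes over the 12 libraries, each centred on its experiment, with 9761 genes compared. The genes most like TUBB6 were WDR1, which speeds actin disassembly (Pearson's r = 0.99), SPARC, a matrix glycoprotein (0.99), and IKBKE, a kinase of innate immunity (0.98). Those most like TUBB3 were GPATCH1 (0.90), SPC24, a kinetochore gene (0.90), and FEN1, a flap nuclease of DNA replication (0.88). The likeness is a description over libraries that share experiments. TUBB could not be included, since it had no entry in the pyruvate list.

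Promoter windows of 300 bases, from 250 before to 50 after the start site, were taken from RefSeq (GRCh38.p14), with 15 windows for the 10 members. The letters CCAAT, on either strand, stood in 10 of 15 windows (66.7%), compared with 34.6% of 35116 windows of all genes. Some members had several windows, and those of TUBA1C at chr12:49227676-49227975 and chr12:49227769-49228068 overlap. At least 1 window held the letters in 8 of 10 members, for which no share per gene was computed. TUBA1B and TUBB2A had no match. TUBB4B held 3 copies, at -232, -166 and -103 from the start site. The letters TTTGAA stood in windows of TUBA1C and TUBB4B (15.2% of all windows), TTCGAA in TUBB3 (1.45%) and TATAAA in TUBB2A, at -30 (11.5%). Both strands were searched. These are matches of letters and not binding data. TUBA1B and TUBA1C, which fell most with A485, had no shared motif among those searched.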

How the data were processed

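Total RNA of wild-type IMR90 libraries was sequenced, and 12 libraries of 3 experiments were used; 8 mouse muscle libraries were not used here. Per the study's methods, the authors trimmed reads with Trim Galore 0.6.10, aligned them to hg38 with HISAT2 2.2.1, sorted with SAMtools 1.7, counted with featureCounts 2.0.6 and normalized with DESeq2 1.34.0. The deposited values are a signal: read counts per gene divided by a size factor set within each experiment. Annotation, strand setting and treatment of reads with several placements are not given in the sources used here. Of the low values checked in each library, 100% came out as whole reads within 0.01 after scaling.

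From these values, log2(value + 1) was fitted, for genes averaging 10 or more across the 4 libraries, with limma 3.58.1 (R 4.3.3, eBayes with trend), with Benjamini-Hochberg adjustment over all genes tested. Fold changes are on that scale, which understates the change of low genes. Comparisons between treatments were the difference of fold changes in a fit over 8 libraries. Shares and sums used value per kb of union exon length (GENCODE version 44) and two-sided exact permutation tests. GC and length trends were removed by loess (span 0.3). Stretches of transcripts were placed with minimap2 2.31. Scripts were tested on simulated data. Alternatives were other pseudocounts, filters, scalings and fold limits, eBayes without trend, count tests (edgeR 4.0.16, DESeq2 1.42.0) on the recovered A485 reads, a replicate block, 1 fit over all libraries and each library left out; the MANE length was added after the data were seen.

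All 10 members were named, with at most 3 called genes of each pathway list (or the 1 with the smallest p), TTC5, MKI67 and the genes most like TUBB3 and TUBB6 (mean of at least 100 in each experiment). Genes named outside this rule were chosen after their values were seen. The members and lists were chosen with earlier results of these data known. Some coding sequences are not reported here.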

Additional observations from a re-analysis of the deposited data

How the results depend on the processing

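Of 519 alternative values of member fold changes, 355 kept direction and side of the threshold under other settings and 91 with a library left out. Scaled to equal totals, A485 fold changes reversed for TUBB2A (0.059), TUBB2B (0.17), TUBB3 (0.30) and TUBG1 (0.059) and MS-275 ones for TUBB (-0.082), TUBB2A (-0.0056) and TUBG1 (-0.068), 2584 genes were called with A485, and MS-275 minus pyruvate had 1 member higher. Quantile normalization gave TUBB -0.14 with MS-275 and TUBB3 -0.20 with pyruvate. Between treatments, A485 minus MS-275 had 0 members lower with equal totals or without the eBayes trend and 1 with quantile normalization, with TUBA1A at 0.081 (quantile) and TUBB2A 0.065 and TUBG1 0.13 (equal totals). A485 minus pyruvate had 1 member higher and TUBB3 at 0.52 with quantile normalization, and 4 lower and 0 higher with length and GC trends removed. MS-275 minus pyruvate had 0 higher with quantile normalization and 2 lower with those trends removed, and TUBA1B at -0.32 (equal totals), -0.31 (quantile) and -0.79 (trends removed), where TUBB2B was -0.14, TUBB4B -0.60 and TUBB6 -0.53. Without the eBayes trend 840 genes were called with A485, and DESeq2 and 1 fit over the 12 libraries each called 5 members lower, adding TUBA1A and TUBB4B; that fit called 488 genes with MS-275. With length and GC trends removed TUBB3 was 0.029 with A485, and with pyruvate 3773 genes, 1 member lower and 2 higher were called, with TUBA1B 0.55, TUBB4B 0.44 and TUBB6 0.43. A fold limit of 0.58 gave 6 members lower with pyruvate, and none gave 7 lower and 1 higher. The causes were not tested.

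With the replicate number as a block, 5 members were called lower with A485, 1 higher and 2183 genes with MS-275 (TUBB2B, adjusted p = 7.76e-06, limma), 5 lower in A485 minus MS-275 and 7 higher in MS-275 minus pyruvate. With this block TUBA1B was at -0.28 with MS-275, inside the fold limit, with adjusted p = 0.0364 (limma). The block with length and GC trends removed gave 5 members with A485 and TUBB3 at 0.029, 1 member and 2013 genes with MS-275, and with pyruvate 1 lower, 2 higher and 3831 genes, with TUBA1B 0.55, TUBB4B 0.44 and TUBB6 0.43. Same-numbered libraries deviated together with r = 0.32 (A485), 0.73 (MS-275) and 0.00 (pyruvate) across genes, with the same sign in 82.1% of genes for MS-275. No label says what a number marks and each experiment has 2 pairs, so the libraries were not treated as paired, and whether the MS-275 numbers mark shared cultures was not settled.

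Leaving out each library in turn gave 0 to 3 members and 229 to 1284 genes with A485, and ranges of -0.74 to 0.072 for TUBB2A, -0.91 to 0.46 for TUBB2B and -1.02 to 0.85 for TUBB3. With MS-275 it gave 33 to 444 genes, TUBA1A -0.36 to 0.027, TUBA1C -0.29 to 0.23, TUBB -0.32 to 0.43, TUBB2A -0.18 to 0.46, TUBB4B -0.58 to 0.053, TUBB6 -0.42 to 0.10 and TUBG1 -0.19 to 0.33. The difference A485 minus MS-275 had 0 to 1 members lower and TUBB3 at -0.093 to 1.78. A485 minus pyruvate had TUBA1A at -0.011 to 0.67, TUBB3 at -1.33 to 0.54 and TUBB4B at -0.59 to 0.14. MS-275 minus pyruvate had 0 to 1 members lower, 0 to 6 higher and TUBB2B at -0.15 to 1.38. Where a group was left with 1 library, that library is assumed to vary like the others. Of 182 alternative shares 15 moved by more than the spread between replicates and 63 did not, all under other lengths. The remaining 104 had a library left out. They could not pass that limit, since leaving out 1 of 2 libraries moves a mean by less than their standard deviation. Tests on recovered reads were run for A485, not for the other experiments, and TUBB was not in the fit over all libraries. With 2 libraries a group, small changes could not be told from replicate spread.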
